A study of Homo sapiens with 15 samples.

Results

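The p24 proteins, encoded by TMED genes, and the KDEL receptors sort cargo between the endoplasmic reticulum (ER) and the Golgi apparatus. Their transcripts were followed here over a dose series of ZJ-101. The 10 genes described, TMED2, TMED3, TMED4, TMED5, TMED7, TMED9, TMED10, KDELR1, KDELR2 and KDELR3, were taken by gene symbol from the 59608 genes of the deposited table. Their choice was made with earlier results of these data known. ZJ-101 is a truncated synthetic analog of the marine macrolide superstolide A. MDA-MB-231 cells, an established human line of triple-negative breast cancer, were kept in 2D culture and exposed for 6 h to DMSO vehicle or to 0.5, 5, 50 or 500 nM ZJ-101, with 3 biological replicates (separate dishes) in each of the 5 groups. The labels name no genetic change and set the groups apart by compound and dose only. Whether the groups also differ in batch cannot be read from these labels. The medium is not stated here because the labels and the study's methods name different formulations of DMEM.

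p24 proteins are small single-pass membrane proteins that assemble with one another and cycle in COPII and COPI vesicles. They bind cargo on the lumenal side, among it proteins held in the membrane by a glycosylphosphatidylinositol (GPI) anchor, and bind coat proteins through short cytoplasmic tails. KDEL receptors are multi-pass Golgi proteins that catch ER-resident chaperones and enzymes that have escaped, by the KDEL-like sequence at their end, and return them to the ER in COPI vesicles.

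For each gene the deposited value is a read count divided by the size factor of its library, called a normalized count below. The 15 libraries held 12415519 to 15284762 reads on genes (median 13320354), and mitochondrial genes took 0.889% to 2.06% of these. The 3 libraries at 50 nM held the fewest reads, 12415519 to 12623863, where every other library held at least 13080286. The fewest reads behind a member in any library were 336, for KDELR3, and the fewest for a p24 gene were 726, for TMED3. The markers VIM (13430 to 18410 normalized counts), CD44 (9275 to 12290) and EGFR (3471 to 8610) were high, and ESR1 (0 to 4.298), PGR (5.372 to 17.33) and CDH1 (107.1 to 206.3) were low. ERBB2 was expected to be low in a triple-negative line but lay between 1136 and 1328 normalized counts. The library labelled 0.5 nM replicate 2 stood apart from its group, as a chi-square comparison of its reads with each of the other two replicates gave 11.12 and 16.55 for every degree of freedom. All other pairs of replicates lay between 2.043 and 6.269, where counting noise by itself would give about 1. This library also holds the highest VIM and the lowest EGFR value given above, and the other libraries had at most 15460 and at least 4617. Counts of fallen members that change without it are given with and without it.

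Gene positions follow GENCODE release 44 on GRCh38. TMED2 is at chr12:123584533-123598582 on the plus strand, TMED3 at chr15:79311112-79427432 on the plus strand, TMED4 at chr7:44577894-44582287 on the minus strand and TMED5 at chr1:93149742-93180516 on the minus strand. TMED7 is at chr5:115613210-115632992 on the minus strand, TMED9 at chr5:177592203-177597242 on the plus strand and TMED10 at chr14:75131469-75176612 on the minus strand. KDELR1 lies at chr19:48382575-48391551 on the minus strand, KDELR2 at chr7:6445953-6484190 on the minus strand and KDELR3 at chr22:38468078-38483447 on the plus strand. All 10 genes code for protein. TMED7 shares 810 of its 4055 exon bases (19.98%) with the read-through gene TMED7-TICAM2 on the same strand. TMED7-TICAM2 was listed at 0 in all 15 libraries and TICAM2 reached at most 2.674 normalized counts. A read in exons of both genes cannot be told apart by position, so the TMED7 values stand for reads that the authors' counting gave to TMED7. KDELR2 shares 9.567% of its exon bases with DAGLB on the same strand. TMED7 has 6.067% of its exon bases opposite TICAM2-AS1. Up to 7.93% of the exon bases of TMED2, TMED5, TMED10 and KDELR3 likewise lie opposite a gene on the other strand, and the strand setting of the counting is not given in the sources used here. A near-identical copy, with at least 95% identity over 50% of the transcript, was not found for any member. At a lower identity, the processed pseudogene TMED10P1 matched 99.63% of the TMED10 transcript with 91.06% identity.

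Promoter sequences from RefSeq (GRCh38.p14), 250 bases before to 50 bases after the annotated start, were matched for 7 of the 10 genes. TMED4, TMED9 and KDELR2 were not matched. The promoters of TMED7 and TMED3, whose transcripts fell the most of those matched, are shown beside those of TMED2 and KDELR3, whose transcripts fell less or at a single dose. Both strands were searched, each sequence is written 5′ to 3′ on the strand of its gene, and capitals mark the letters of a motif that was found. The TMED7 window is chr5:115625987-115626286 (minus strand), the TMED3 window chr15:79310862-79311161 (plus), the TMED2 window chr12:123584302-123584601 (plus) and the KDELR3 window chr22:38467846-38468145 (plus).
TMED7: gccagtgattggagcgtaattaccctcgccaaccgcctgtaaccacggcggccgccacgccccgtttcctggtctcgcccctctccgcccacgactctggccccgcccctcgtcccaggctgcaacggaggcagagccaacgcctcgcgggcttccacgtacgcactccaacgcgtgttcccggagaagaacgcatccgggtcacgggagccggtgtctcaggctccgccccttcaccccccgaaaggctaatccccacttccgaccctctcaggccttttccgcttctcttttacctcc
TMED3: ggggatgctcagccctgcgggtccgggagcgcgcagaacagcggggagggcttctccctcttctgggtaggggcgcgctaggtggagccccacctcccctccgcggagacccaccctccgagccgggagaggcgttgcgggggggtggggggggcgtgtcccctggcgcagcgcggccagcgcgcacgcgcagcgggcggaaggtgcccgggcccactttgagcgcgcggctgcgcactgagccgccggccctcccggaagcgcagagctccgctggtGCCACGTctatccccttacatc
TMED2: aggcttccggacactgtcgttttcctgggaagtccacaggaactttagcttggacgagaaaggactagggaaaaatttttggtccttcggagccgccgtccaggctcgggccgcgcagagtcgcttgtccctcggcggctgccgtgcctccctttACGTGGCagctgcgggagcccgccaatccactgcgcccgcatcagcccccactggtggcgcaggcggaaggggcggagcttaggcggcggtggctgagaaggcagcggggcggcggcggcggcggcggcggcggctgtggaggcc
KDELR3: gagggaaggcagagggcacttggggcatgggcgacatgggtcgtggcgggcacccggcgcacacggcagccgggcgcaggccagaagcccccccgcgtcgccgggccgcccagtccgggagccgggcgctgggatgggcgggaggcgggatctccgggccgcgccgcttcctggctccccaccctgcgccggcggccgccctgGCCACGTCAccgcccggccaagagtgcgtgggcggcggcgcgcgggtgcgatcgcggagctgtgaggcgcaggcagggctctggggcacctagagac

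The Golgi stress element ACGTGGC was found in 3 of the 7 promoters and in 3.22% of all 35116 promoters. Its leftmost base lay at -47 from the start in KDELR3 and at -95 in TMED2, and at 29 after the start in TMED3. The unfolded protein response element TGACGTGG was found in KDELR3 alone of the 7, at -46 on the opposite strand, where it shares letters with the Golgi stress element, and in 0.729% of all promoters. The cAMP response element TGACGTCA (1.85% of all promoters), the ER stress element, which is CCAAT followed after 9 bases by CCACG (0.0769%), and the heat shock element, which is 3 alternating GAA and TTC units 2 bases apart (0.49%), were not among the letters of the 7 windows. The TMED7 window held none of the 5 motifs. It lies inside the TMED7 interval given above, which on the minus strand begins at 115632992. Sequence around that upstream end was not searched. A match of letters is a description and not a binding site. The 7 promoters had a median of 68.3% G and C, against 58.7% for all promoters.

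Transcripts of 6 of the 7 p24 genes fell at 50 and 500 nM ZJ-101, TMED2 being the exception, and KDELR1 and KDELR2 did not pass the test at any dose. Of all tested genes, 3.71% fell at 50 nM and 10.1% at 500 nM. At 500 nM, TMED7, TMED9 and TMED3 were at 58.1%, 58.7% and 61.6% of their DMSO mean, and TMED10, TMED4 and TMED5 at 73.5%, 78.8% and 79%. TMED2 was at 92.8%, KDELR1 at 95.7%, KDELR2 at 93.9% and KDELR3 at 78.8%. Each dose was compared with DMSO by limma on log2(normalized count + 1), with all 15 libraries in 1 fit and Benjamini-Hochberg adjustment over the 13561 genes tested, those that averaged 10 or more normalized counts, and a gene counted as changed at an adjusted p under 0.05. All 10 members passed the filter. Fold changes below are on this log2 scale, with the standard error (SE) from the fit. In RNA from whole dishes, fewer cells that carry a transcript and less of it per cell cannot be told apart.

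**Figure D1:**
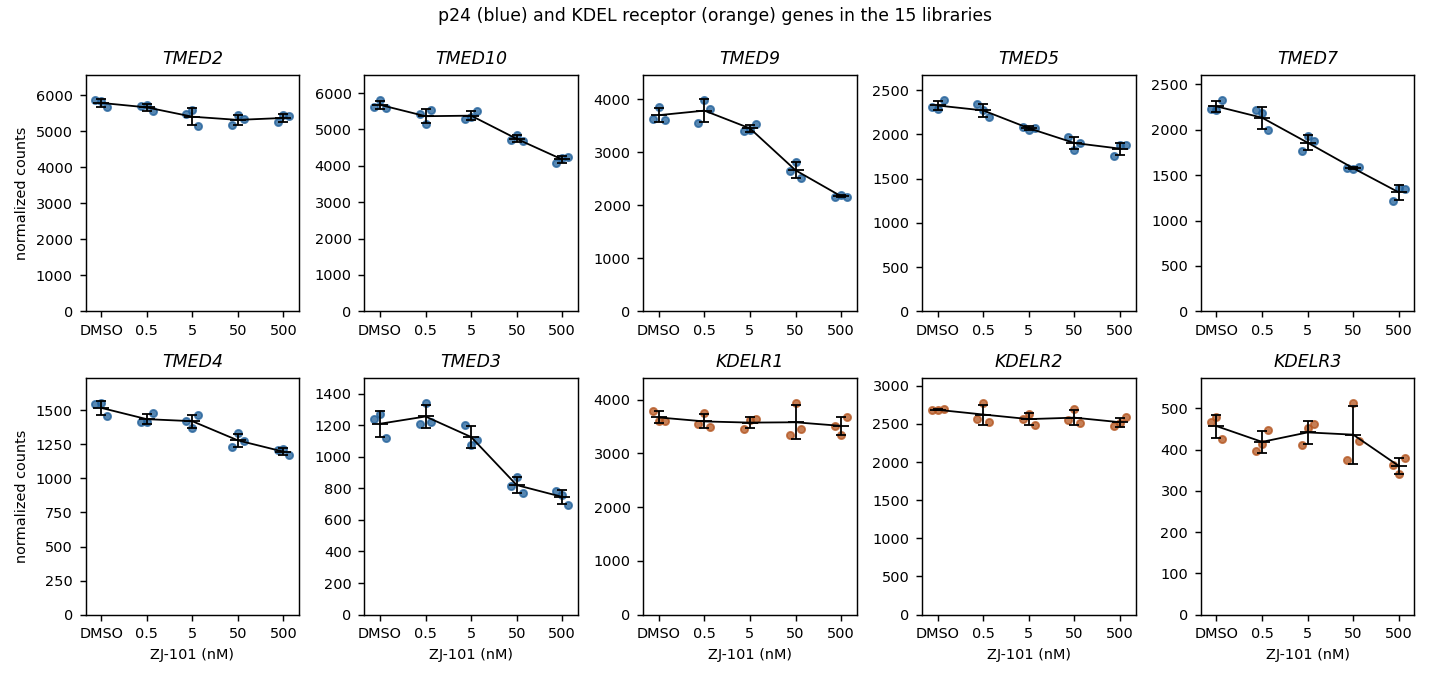
Normalized counts (vertical axes, from 0) of the 10 genes in each of the 15 libraries, by dose of ZJ-101 in nM (horizontal axes). Points are libraries, and the line with bars gives the mean and SD of 3 libraries. At 500 nM all 3 libraries of every p24 gene lie below all 3 DMSO libraries, which held for 19.6% of all tested genes. The 500 nM libraries of KDELR1 overlap its DMSO libraries.

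At 0.5 nM no member passed the threshold with limma, against 0.922% of all tested genes that fell at this dose. None had an unadjusted p under 0.05 with limma or edgeR and 1 had with DESeq2, and neither of these count tests on the recovered reads called a member. At 5 nM only TMED7 had fallen, where 1.71% of the tested genes fell, and 3 members had an unadjusted p under 0.05. The number of fallen members was 6 of 10 at 50 nM, where 3.71% of the tested genes fell, and 7 of 10 at 500 nM, where 10.1% fell and 7.69% rose. No member rose at any dose with limma, edgeR or DESeq2, and every member with an unadjusted p under 0.05 by limma had a negative fold change. The 6 at 50 nM were all p24 genes but TMED2, and the 7 at 500 nM were these and KDELR3. The 4 comparisons share the 3 DMSO libraries. The median log2 fold change of the 7 p24 genes was -0.03, -0.10, -0.29 and -0.44 at 0.5, 5, 50 and 500 nM, and that of the 3 KDEL receptor genes was -0.03, -0.05, -0.06 and -0.09, where the median of all tested genes lay between -0.00685 and 0.00266. The spread was estimated over all groups, so that 0.5 nM replicate 2 bears on every dose. Without it the counts of fallen members were 2 at 5 nM, 7 at 50 nM and 8 at 500 nM, with TMED5 added at 5 nM and TMED2 at 50 and 500 nM. The number of all tested genes that fell also went up, from 232, 503 and 1366 to 425, 737 and 1654.

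All 3 treated libraries lay below all 3 DMSO libraries for 2 members at 0.5 nM, TMED7 and TMED10, where this held for 10.7% of the tested genes. It held for 6 members at 5 nM (12.7% of tested genes), 7 at 50 nM (13.2%) and 9 at 500 nM (19.6%). The exception at 500 nM was KDELR1.

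**Figure D2:**
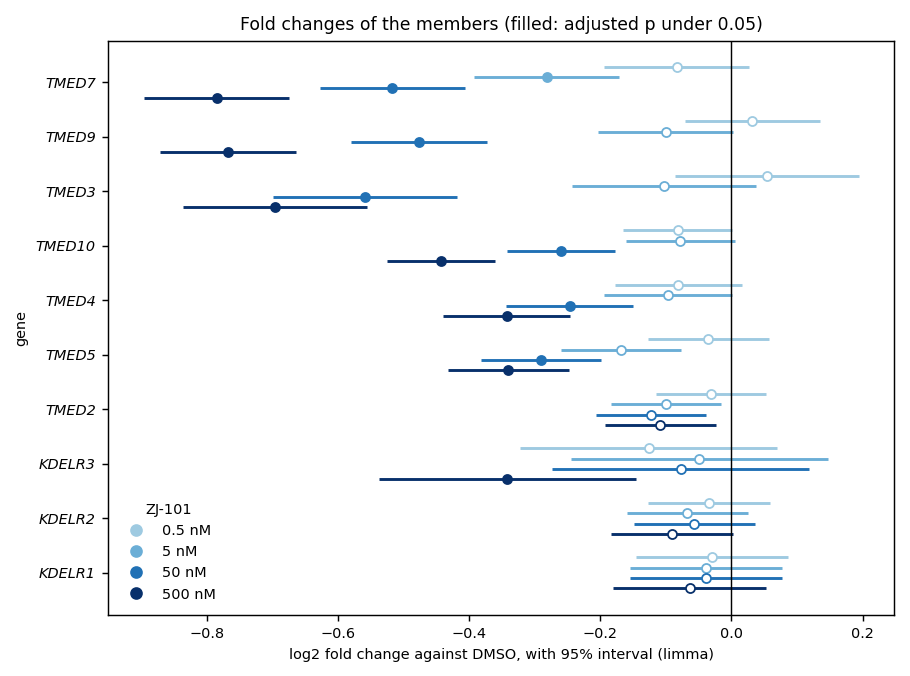
Log2 fold change against DMSO (horizontal axis) of each gene (vertical axis) at 4 doses of ZJ-101, with the 95% interval from limma. Filled points passed an adjusted p of 0.05. TMED7, TMED9 and TMED3 reach -0.79, -0.77 and -0.70 at 500 nM, and the intervals of KDELR1 and KDELR2 include 0 at every dose.

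The α subfamily of p24 proteins is represented by TMED9 and TMED4. TMED9 is a Golgi and intermediate compartment p24 protein with a COPI-binding tail. Its normalized counts in replicates 1, 2 and 3 were 3635, 3846 and 3618 in DMSO, 3545, 3988 and 3824 at 0.5 nM and 3395, 3427 and 3529 at 5 nM. They were 2649, 2819 and 2514 at 50 nM and 2164, 2195 and 2155 at 500 nM. The 0.5 nM libraries overlapped those of DMSO, and from 5 nM on each library lay below every DMSO library. TMED9 did not pass the threshold at 5 nM (log2 fold change -0.10, SE 0.05, limma adjusted p = 0.412) and fell at 50 nM (-0.48, SE 0.05, adjusted p = 2.53e-06) and at 500 nM (-0.77, SE 0.05, adjusted p = 1.79e-09). By p-value it was gene 54 of 13561 at 500 nM, the first of the members.

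TMED4, the other α member, gave 1546, 1554 and 1457 normalized counts in DMSO, 1413, 1416 and 1479 at 0.5 nM and 1420, 1373 and 1469 at 5 nM. At the higher doses its values were 1232, 1332 and 1276 (50 nM) and 1207, 1216 and 1169 (500 nM). The 2 lower doses overlapped DMSO and the 2 higher doses did not. It fell by 0.25 on the log2 scale at 50 nM (SE 0.05, limma adjusted p = 0.00195) and by 0.34 at 500 nM (SE 0.05, adjusted p = 2.59e-05), a smaller change than that of TMED9.

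TMED2, the only β p24 protein, pairs with TMED10 in complexes that leave the ER with GPI-anchored cargo. It had 5869, 5827 and 5662 normalized counts in DMSO, 5697, 5736 and 5553 at 0.5 nM, 5482, 5582 and 5143 at 5 nM, 5168, 5443 and 5331 at 50 nM and 5247, 5438 and 5418 at 500 nM. From 5 nM on its libraries lay below those of DMSO, by a small margin. The fold change was -0.10 at 5 nM, -0.12 at 50 nM and -0.11 at 500 nM (SE 0.04 each), and none passed with limma (adjusted p = 0.274, 0.0831 and 0.0725). The 95% interval at 500 nM ran from -0.19 to -0.02. Without 0.5 nM replicate 2 it passed at 50 and 500 nM.

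TMED10, the only δ member, is required for the stability of other p24 proteins. Its values were 5621, 5812 and 5596 normalized counts in DMSO, 5412, 5152 and 5527 at 0.5 nM and 5274, 5342 and 5520 at 5 nM. They dropped to 4700, 4852 and 4674 at 50 nM and 4071, 4220 and 4230 at 500 nM. No library at any dose reached the lowest DMSO library. The lowest value at 0.5 nM was that of replicate 2, the library that stood apart, and without it the fold change at 0.5 nM was -0.05 in place of -0.08 and the adjusted p 0.61 in place of 0.343. TMED10 fell at 50 nM (log2 fold change -0.26, SE 0.04, limma adjusted p = 0.000222) and at 500 nM (-0.44, SE 0.04, adjusted p = 1.44e-07). Unlike that of TMED2, its change passed at both doses, and the slopes of the 2 genes differed in the test given below.

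Of the γ subfamily, TMED3, TMED5 and TMED7 are members of the set. TMED7 had 2224, 2221 and 2329 normalized counts in DMSO, 2218, 2186 and 1996 at 0.5 nM and 1770, 1933 and 1871 at 5 nM. At 50 nM it had 1576, 1569 and 1585, and at 500 nM 1219, 1362 and 1352. Its 5 groups were in the order of the dose, and from 0.5 to 500 nM no library of a dose overlapped one of the next. TMED7 was the only member to fall at 5 nM (log2 fold change -0.28, SE 0.05, limma adjusted p = 0.00728), and it went on falling at 50 nM (-0.52, adjusted p = 2.06e-06) and 500 nM (-0.79, adjusted p = 3.01e-09). The call at 5 nM rested on 5 nM replicate 1, its lowest library, without which the adjusted p was 0.0517.

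TMED3 gave 1237, 1275 and 1119 normalized counts in DMSO, 1207, 1341 and 1219 at 0.5 nM and 1201, 1073 and 1104 at 5 nM. The next values were 816.6, 874.3 and 772.2 at 50 nM and 783.7, 757.5 and 696.8 at 500 nM. The 0.5 and 5 nM libraries each overlapped those of DMSO, and the 2 higher doses lay below all of these. The fold change was -0.56 at 50 nM (SE 0.07, limma adjusted p = 1.61e-05) and -0.70 at 500 nM (SE 0.07, adjusted p = 4.18e-07).

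TMED5, a γ member known for its part in the export of Wnt ligands, had 2305, 2285 and 2390 normalized counts in DMSO, 2344, 2275 and 2196 at 0.5 nM and 2087, 2048 and 2076 at 5 nM. It had 1975, 1828 and 1906 at 50 nM and 1760, 1875 and 1880 at 500 nM. From 5 nM on, its libraries lay below those of DMSO. The change at 5 nM just missed the threshold (log2 fold change -0.17, SE 0.04, limma adjusted p = 0.0515) and those at 50 nM (-0.29, SE 0.04, adjusted p = 0.000206) and 500 nM (-0.34, SE 0.04, adjusted p = 1.48e-05) passed.

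Of the KDEL receptors, KDELR1 cycles between the Golgi and the ER with its cargo. It had 3795, 3600 and 3606 normalized counts in DMSO, 3542, 3742 and 3496 at 0.5 nM, 3460, 3612 and 3640 at 5 nM, 3347, 3934 and 3449 at 50 nM and 3509, 3341 and 3679 at 500 nM. All 4 doses overlapped DMSO. At 500 nM the log2 fold change was -0.06 (SE 0.06, limma adjusted p = 0.493) with a 95% interval from -0.18 to 0.05. The fold changes of the 6 p24 genes that fell all lay outside this interval, and so did that of KDELR3 (-0.34). Those of TMED2 and KDELR2 lay inside it. A difference between genes in fold change at 500 nM was not tested.

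KDELR2 had 2679, 2686 and 2692 normalized counts in DMSO, 2570, 2774 and 2528 at 0.5 nM, 2571, 2637 and 2485 at 5 nM, 2548, 2691 and 2511 at 50 nM and 2472, 2511 and 2586 at 500 nM. The 5 nM and 500 nM libraries lay below those of DMSO, which were close together (SD 6.204), and the other doses overlapped. The log2 fold change at 500 nM was -0.09 (SE 0.04, limma adjusted p = 0.182), with a 95% interval from -0.18 to 0.0022.

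KDELR3, the least abundant of the 3, had 466.1, 479.5 and 426.1 normalized counts in DMSO, 395.6, 413.5 and 447.6 at 0.5 nM, 411.3, 451.9 and 462.5 at 5 nM, 375, 513 and 421.2 at 50 nM and 362.8, 339.8 and 378.9 at 500 nM. Only the 500 nM libraries lay below all of DMSO. KDELR3 fell at 500 nM (log2 fold change -0.34, SE 0.09, limma adjusted p = 0.0147), and this call was lost without DMSO replicate 1, DMSO replicate 2 or 500 nM replicate 2 (adjusted p up to 0.0707). In 50 nM replicate 2 all 3 KDEL receptor genes had the highest value of their group. The same held for TMED2, TMED3, TMED4, TMED9 and TMED10, and not for TMED5 and TMED7, so it was not particular to the KDEL receptors.

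The study asked how the response follows the dose, and this was tested as a slope of log2(normalized count + 1) on the rank of the dose from 0 (DMSO) to 4 (500 nM). All 7 p24 genes had a negative slope past the threshold and no KDEL receptor gene had, where 9.33% of the tested genes had a negative slope past it. Of the KDEL receptor genes, 1 had an unadjusted p under 0.05 with limma, KDELR3, and 0 were called by edgeR or DESeq2. TMED9, TMED3 and TMED7 each fell by 0.20 per step on the log2 scale (limma adjusted p = 7.86e-07, 3.55e-06 and 1.01e-08). TMED10 fell by 0.11 (limma adjusted p = 3.25e-06), TMED5 and TMED4 by 0.09 (1.76e-06 and 1.23e-05) and TMED2 by 0.03 (0.0299). TMED7 ranked 7 of all 13561 genes by the p of its slope. The slope of TMED2 did not pass without DMSO replicate 1, DMSO replicate 2 or 500 nM replicate 1, over the 12 treated libraries alone or with no filter on low values. KDELR3 had a slope of -0.06 (limma adjusted p = 0.0668), which passed without 50 nM replicate 2 (-0.08, adjusted p = 0.00614).

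Whether members differed in slope was tested for all 45 pairs, as the slope of the log2 ratio of both genes, with a two-sided permutation test that shuffled the 15 libraries 100000 times and Benjamini-Hochberg adjustment over the pairs. The smallest p these permutations can give is 1e-05. The slopes differed in 32 of 45 pairs, in 16 of the 21 pairs of p24 genes, in 15 of the 21 pairs of a p24 and a KDEL receptor gene and in 1 of the 3 pairs of KDEL receptor genes. TMED3, TMED7 and TMED9 did not differ from one another (differences of -0.0001063, 0.003904 and 0.00401 per step, permutation adjusted p = 0.997, 0.83 and 0.86), and each fell more steeply than every other member (largest adjusted p 0.00403). TMED2 fell less steeply than the other 6 p24 genes (largest permutation adjusted p 0.00203). Its slope was not shown to differ from that of KDELR1 (difference -0.02 per step, permutation adjusted p = 0.227), KDELR2 (-0.01, 0.202) or KDELR3 (0.03, 0.314). TMED4 and TMED5 did not differ from each other (0.01, permutation adjusted p = 0.623), nor TMED5 from TMED10 (0.01, 0.478). KDELR3 fell more steeply than KDELR1 (0.05 per step, permutation adjusted p = 0.04) and was not shown to differ from TMED4, TMED5 or TMED10 (adjusted p = 0.402, 0.44 and 0.0714). Without 0.5 nM replicate 2 the same 32 pairs passed, and without 50 nM replicate 2 these and 1 more.

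Neighboring doses were compared to see where the fall took place. From 0.5 to 5 nM no member passed (0.0885% of tested genes fell), with 4 members at an unadjusted p under 0.05 with limma and 0 called by edgeR or DESeq2. The step from 5 to 50 nM was passed by 4 members, where 2.39% of the tested genes fell. They were TMED3 (log2 fold change -0.46, limma adjusted p = 0.000294), TMED9 (-0.38, 9.01e-05), TMED7 (-0.24, 0.0112) and TMED10 (-0.18, 0.00887). TMED4 changed by -0.15 in this step (limma adjusted p = 0.0731). It also passed, for a count of 5, without 0.5 nM replicate 2 (limma adjusted p = 0.037), without 50 nM replicate 2 (0.0495) and with TMM scaling (0.0448). From 50 to 500 nM, TMED9 (-0.29, limma adjusted p = 0.00243), TMED7 (-0.27, 0.00892) and TMED10 (-0.18, 0.0154) fell further, where 1.8% of the tested genes fell. This last count went down to 1, TMED9, without 500 nM replicate 1, and to 2 without 50 nM replicate 2 or 500 nM replicate 3, where TMED10 was lost. TMED3 changed by -0.14 in this step (adjusted p = 0.394). The 2 steps of a gene share a group of libraries, so they are given side by side and not tested against each other.

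To set genes beside one another, normalized counts were divided by the length of the MANE Select transcript in kb, on the assumption that this transcript is the one used. Per kb in DMSO the p24 genes were in the order TMED2 (2270 ± 42.9, SD, n = 3), TMED9 (1450 ± 49.9), TMED10 (1380 ± 28.7), TMED3 (853 ± 57.2), TMED4 (662 ± 23.5), TMED7 (576 ± 15.8) and TMED5 (402 ± 9.62). The libraries of neighbors in this order did not overlap, with TMED9 (1420 to 1510) and TMED10 (1360 to 1410) the closest. KDELR1 (2370 ± 71.5) stood above KDELR2 (964 ± 2.23) and KDELR3 (270 ± 16.4). At 500 nM the order of the p24 genes had changed, with TMED10 (1020 ± 21.8) above TMED9 (853 ± 8.2), and the libraries overlapped for TMED3 (526 ± 31.4) and TMED4 (522 ± 10.7) and for TMED7 (335 ± 20.4) and TMED5 (318 ± 11.7).

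The 7 p24 genes together gave 7600 ± 157 normalized counts per kb in DMSO (SD, n = 3), 7470 ± 107 at 0.5 nM, 7030 ± 23.3 at 5 nM, 6160 ± 160 at 50 nM and 5680 ± 82.9 at 500 nM. The 3 KDEL receptor genes gave 3600 ± 75.1 in DMSO and 3380 ± 135 at 500 nM. The ratio of both sums went from 2.11 ± 0.054 in DMSO to 1.77 ± 0.0914 at 50 nM and 1.68 ± 0.081 at 500 nM. The makeup of the p24 sum shifted as well. TMED2 made up 29.9% ± 0.377 of it in DMSO and 37.2% ± 0.338 at 500 nM, TMED9 19.1% ± 0.367 and 15% ± 0.147, and TMED7 7.58% ± 0.359 and 5.89% ± 0.288. TMED10 kept a share near 18%, with 18.2% ± 0.181 and 17.9% ± 0.224. In the KDEL receptor sum, KDELR1 made up 65.7% ± 0.689 in DMSO and 66.9% ± 0.655 at 500 nM.

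**Figure D3:**
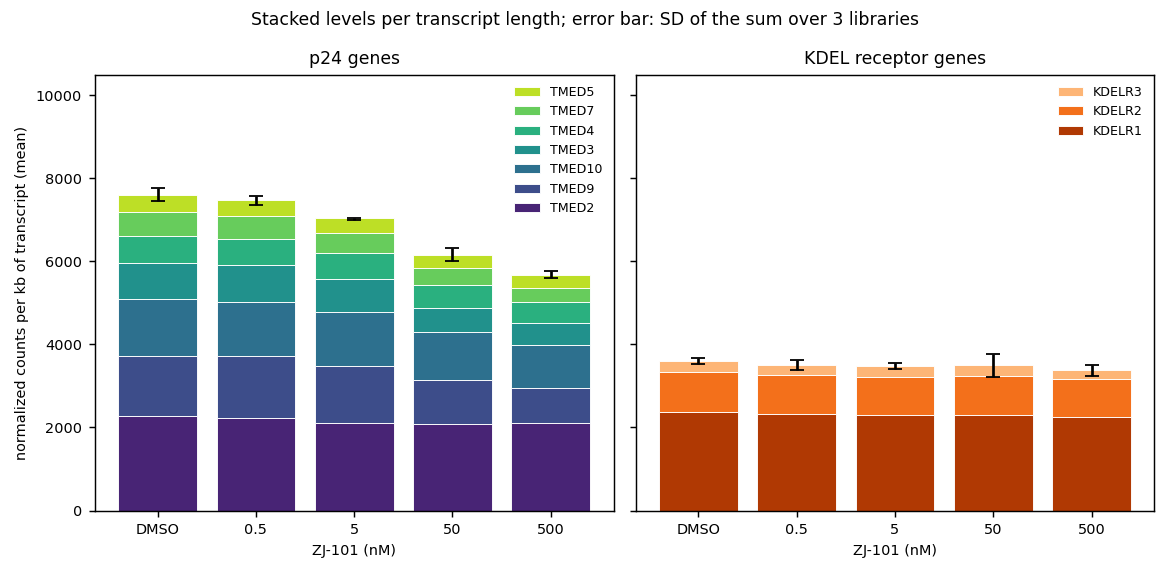
Stacked mean normalized counts per kb of transcript (vertical axis, from 0) by dose of ZJ-101 in nM (horizontal axis) for the p24 genes (left) and the KDEL receptor genes (right). Error bars give the SD of the sum over 3 libraries. The p24 sum goes from 7600 in DMSO to 5680 at 500 nM and the KDEL receptor sum from 3600 to 3380.

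Across the 15 libraries, which hold all 5 dose groups, the 6 p24 genes other than TMED2 had Pearson r values between 0.834 and 0.971 with one another on the log2 scale. TMED2 had values between 0.581 and 0.736 with them, and the KDEL receptor genes between 0.486 and 0.69 among themselves. Between a p24 and a KDEL receptor gene r ranged from 0.174 to 0.745, the highest being that of TMED2 with KDELR2, above each value of TMED2 with a p24 gene. The genes most like each p24 gene were looked for among the 9965 that averaged 100 or more normalized counts, as a description. TMED3 was closest to A4GALT (r = 0.99), NOG (0.976) and PLAUR (0.976), and TMED9 to CKAP4 (0.987), MMP14 (0.986) and ID3 (0.985). TMED10 was closest to ADAM10 (0.986), CSF1 (0.986) and COL5A1 (0.982), and TMED4 to COL6A1 (0.982), PCSK6 (0.975) and FAM114A1 (0.972). TMED7 was closest to C11orf24 (0.975), TMEM263 (0.968) and CALR (0.966), and TMED5 to PDIA5 (0.97), CRISPLD1 (0.967) and ERLEC1 (0.962). TMED2 had the lowest values, with CHST12 (0.907), C1GALT1 (0.865) and CIR1 (0.849).

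Genes of the same transport steps were described at 500 nM from lists written with earlier results of these data known, and the counts carry no test of a list. Of the other TMED genes listed, TMED1 fell (156.1 ± 12.6 to 116.3 ± 1.765 normalized counts, log2 fold change -0.42, limma adjusted p = 0.00221) and TMED8 did not pass (0.04, adjusted p = 0.762). TMED6 was too low to be tested.

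Soluble ER proteins with a KDEL-like end are the clients of the KDEL receptors. Of 33 such genes, all tested, 23 fell at 500 nM and 0 rose with limma, and no rise was called by edgeR or DESeq2 or had an unadjusted p under 0.05. The count was 6 at 5 nM and 12 at 50 nM. Of all tested genes, 1.71%, 3.71% and 10.1% fell at 5, 50 and 500 nM. The median log2 fold change at 500 nM was -0.36, against 0.00266 for all tested genes, and 10 of the falls at 500 nM were of at least 0.5 on the log2 scale. The shares of all tested genes given here are without this minimum. HSPA5 (BiP), the main ER chaperone of the Hsp70 family, fell by 1.38 on the log2 scale at 500 nM (limma adjusted p = 1.5e-13), from 14140 ± 313.3 to 5439 ± 190.1 normalized counts. MANF, an ER stress-induced secreted factor, fell by 0.86 (adjusted p = 1.27e-09). TXNDC5, a protein disulfide isomerase, fell by 2.58 (adjusted p = 0.000828), with 270, 368.2 and 398.7 normalized counts in DMSO and 154.9, 47.53 and 23.85 at 500 nM. Its groups were not in the order of the dose (87.55 to 269.9 at 5 nM and 219.4 to 337.4 at 50 nM). Its slope on the dose rank passed the threshold (-0.46 per step, limma adjusted p = 0.023). Of its exon bases, 60.95% lie in the read-through gene BLOC1S5-TXNDC5.

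COPI carries both families on the way back to the ER. Of 13 tested genes of the COPI coat and its ARF1 cycle, 7 fell at 500 nM and 0 rose with limma, edgeR or DESeq2. No rise had an unadjusted p under 0.05. Of all tested genes, 10.1% fell and 7.69% rose at this dose. The COPI median was -0.13, against 0.00266 for all tested genes. The coat subunits COPG1 (-0.37, limma adjusted p = 3.93e-06) and ARCN1 (-0.23, 0.00725) and the GTPase-activating protein ARFGAP3 (-0.34, 0.00232) had the largest falls. Over the alternatives without a minimum fold the number of fallen COPI genes lay between 4 and 7, and it was 0 with a minimum of 0.5 on the log2 scale.

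Proteins with a GPI anchor are the best known cargo of p24 complexes. Of all tested genes, 10.1% fell and 7.69% rose at 500 nM. Of 15 tested genes for GPI-anchored surface proteins, 8 fell at this dose and 0 rose with limma, edgeR or DESeq2. An unadjusted p under 0.05 was seen for 1 rise. The median was -0.33, against 0.00266 for all tested genes. With a minimum of 0.5 on the log2 scale, 3 fell, and the shares of all tested genes given here are without this minimum. The urokinase receptor PLAUR fell by 0.89 on the log2 scale (limma adjusted p = 5.17e-10), the ephrin EFNA1 by 0.88 (2.38e-05) and the glypican GPC1 by 0.57 (3.45e-06). Of 5 tested enzymes that remodel the GPI anchor, PGAP2 rose (0.39, limma adjusted p = 0.00896) and PGAP6 fell (-0.30, 0.000274), and the median was 0.0496.

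The other cargo and retrieval receptors moved in both directions. At 500 nM, 10.1% of all tested genes fell and 7.69% rose, with a median of 0.00266. Of the 16 receptor genes tested, 4 fell and 5 rose at this dose, with a median of 0.0471. Over the alternatives without a minimum fold 3 to 5 fell and 3 to 6 rose, and none did either with a minimum of 0.5 on the log2 scale. Among the falls were LMAN1 (-0.36, limma adjusted p = 0.000179), ERGIC2 (-0.27, 0.000462) and LMAN2 (-0.20, 0.000956), of which LMAN1 and LMAN2 are lectins for glycoprotein cargo. Rises were seen for MIA2 (0.32, limma adjusted p = 0.000639) and MIA3 (0.20, 0.0491), which serve the export of large cargo such as collagen, and for CNIH1 (0.25, 0.000606).

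**Figure D4:**
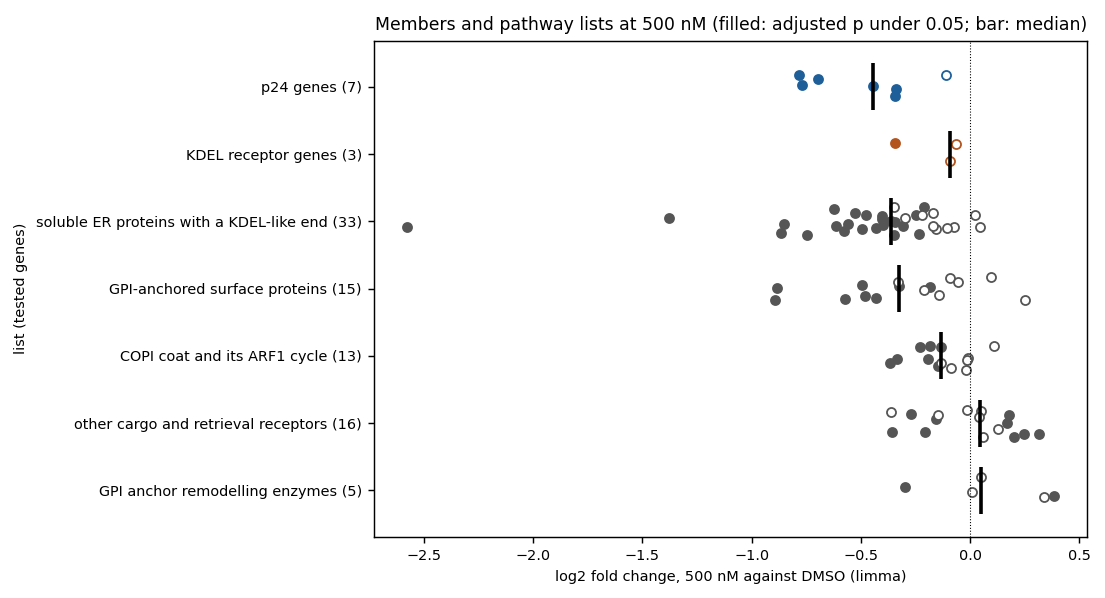
Log2 fold change at 500 nM against DMSO (horizontal axis) of each tested gene in the p24 and KDEL receptor genes and in 5 lists of related genes (vertical axis, number of tested genes in brackets). Filled points passed an adjusted p of 0.05 with limma and the bar is the median of the list. The medians of the p24 genes (-0.44) and of the proteins with a KDEL-like end (-0.36) lie furthest below 0.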

How the data were processed

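RNA of 15 libraries was measured, 3 for each of DMSO and 4 doses of ZJ-101, grouped by the labels. The signal values are normalized counts as deposited: the authors selected poly-A RNA, mapped its paired reads on hg38 (HISAT2), assigned them to genes (htseq-count) and scaled every library with a DESeq2 size factor (0.916 to 1.13). The GENCODE release, tool versions and strand setting they used are not given in the sources used here, nor is how reads in overlapping or repeated genes were treated beyond the counter's name. A line of doses was left out of the table. Division by the smallest step of a library gave back whole reads, and 100% of the values came out whole within 0.001. Their totals, 12415519 to 15284762 per library, limit the precision by counting error.

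limma 3.58.1 with a mean-variance trend was run in R 4.3.3 on log2(value + 1), a pseudocount that understates changes of low genes. The 5 groups entered 1 fit, and a separate fit took the dose rank as a number. limma called 159, 295, 814 and 2409 genes at 0.5, 5, 50 and 500 nM, edgeR 4.0.16 (quasi-likelihood) 135, 326, 820 and 2432 and DESeq2 1.42.0 231, 352, 834 and 2203 on the recovered reads. The other alternatives were pseudocounts of 0.5 and 5, no filter or a mean of 50, TMM or equal totals, the replicate number as a block, each library left out, an adjusted p of 0.1, a minimum fold, and the compared groups alone. No sample was excluded. The permutation test of slopes (SciPy 1.17.1, Python 3.11.15) and the comparison of levels per kb were added after results were seen. Copies were searched for with minimap2 2.31-r1302.

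The members and lists were chosen with earlier results of these data known. Genes named are the 10 members, TMED7-TICAM2 and TICAM2, up to 3 rises and 3 falls of each list at 500 nM among genes past the threshold, and the 3 genes most correlated with each member that passed the slope test. TMED8 and TMED6 were named besides as the remaining TMED genes of the lists, and DAGLB, TICAM2-AS1, BLOC1S5-TXNDC5 and TMED10P1 for shared exons or sequence.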

Additional observations from a re-analysis of the deposited data

How the results depend on the processing

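No call of a member changed direction under any alternative. Of 2160 member values recomputed, 2105 kept their side of the threshold, 35 were no longer past it and 20 were newly past it, and 30 values that were not called had the other sign. At 5 nM the count of fallen members was 1, and it was 2 (TMED7 and TMED5) with a mean of at least 50, equal totals, edgeR, DESeq2, an adjusted p under 0.1 or the 6 libraries alone. Leaving out 1 library at a time gave 0 to 2 there, with 0 without 5 nM replicate 1 and 2 without 0.5 nM replicate 2, 0.5 nM replicate 3 or 50 nM replicate 2. From 50 to 500 nM leaving out 1 library gave 1 to 3 in place of 3, with 1 without 500 nM replicate 1. A minimum change of 0.5 on the log2 scale left 0 members at 5 nM, 2 at 50 nM (TMED3 and TMED7) and 3 at 500 nM (TMED3, TMED7 and TMED9), in place of 1, 6 and 7, and the same minimum spread over the 4 steps of the slope left 3 in place of 7. The minimum of 0.5 left 0 from 5 to 50 nM and 0 from 50 to 500 nM, in place of 4 and 3. These last counts follow from the size that was asked for. The shares of all tested genes given above are without a minimum fold, and are no measure for the counts with it, of members or of lists. The counts at 0.5 nM and from 0.5 to 5 nM were 0 under each alternative. From 5 to 50 nM leaving out 1 library gave 3 to 5 in place of 4, with TMED7 lost without 5 nM replicate 2 (adjusted p = 0.0705) and TMED10 lost without 5 nM replicate 3 (0.0567). Leave-one-out counts were 6 to 7 at 50 nM, 6 to 8 at 500 nM and 6 to 8 for the slope.

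No clear pairing of the libraries by replicate number was seen, which does not exclude that they were paired. Deviations of libraries with the same number had r between -0.158 and 0.215, over 0.1 in 8 of 30 pairs. Between libraries with different numbers r lay between -0.287 and 0.151. Closest to their own number were 6 of 15 libraries. With the replicate number as a block the counts of fallen members were 0, 1, 6 and 7 at the 4 doses and 7 for the slope, and no member's call changed.

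With 3 libraries in a group, the calls of TMED2 and KDELR3 lie near the threshold and depend on single libraries. KDELR3 has the fewest reads of the members. The table gives 1 value per gene, so isoforms, protein levels and the share of cells that responded were not measured. RNA was taken at 6 h only.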
